A study of Rattus norvegicus with 18 samples.

Results

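Lcn2, complement C3 and Pigr are 3 genes of mucosal defence, and their RNA was followed in rat lung across 3 exposures to mainstream cigarette smoke and 3 recovery times. Every probe set that the platform annotation assigned to only one of the 3 symbols was taken, which gave 3 of the 31256 probe sets of the series, 1 for each gene and all on the array type called A here. The probe set of Lcn2 is 1387011_at, that of C3 is 1368000_at and that of Pigr is 1371099_at. The 3 genes were chosen from the measured values of these arrays, because their signals step up with the smoke level. Their differences between exposures are therefore given as a description, with no test.

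The rats were male Sprague-Dawley animals that breathed through the nose only, 2 h a day on 5 days a week for 13 weeks. The controls were sham-exposed, another group inhaled mainstream smoke of the reference cigarette 2R4F at 300 µg TPM/l, where TPM is total particulate matter, and the last group inhaled it at 600 µg TPM/l. Whole lung tissue was taken 2, 6 or 20 h after the last session, and total RNA was hybridised to 2 Affymetrix array types, A and B. Each of the 9 conditions has 1 array of each type, so 3 arrays per exposure and type stand for 3 recovery times and no condition has a replicate. The number of lungs behind each array is not stated, and by the labels the groups differ in smoke level and recovery time alone.

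A pair of labelling matters precedes the values. The 4 smoke samples at 20 h, 2 on each type, carry a further label that says sham, while their title and source name the smoke level, which was used here. On type B the arrays labelled sham and 300 µg TPM/l at 2 h deviated together, with r = 0.453 over probe sets. Deviations were taken from each probe set's mean over its 9 arrays, with no exposure or time difference removed. The next pair on type B reached 0.044 and the highest pair on type A 0.073. The 3 genes lie on type A only. The tissue label was checked on its defining markers: Sftpc, the surfactant protein of alveolar type 2 cells, read 15855 to 18566 and Scgb1a1, the secretoglobin of club cells, 13321 to 15904 on all arrays.

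Lcn2 encodes lipocalin 2, a small secreted protein of neutrophils and stressed epithelium that binds bacterial siderophores and so withholds iron from bacteria. C3 is the protein on which the classical, lectin and alternative routes of complement activation converge: its cleavage leaves a fragment on the target surface that marks it for uptake, and releases a small inflammatory peptide. Pigr encodes the polymeric immunoglobulin receptor, which carries dimeric IgA and IgM across the epithelial cell and is shed with them into the lumen as secretory component. In the airway all 3 are products of epithelium, and in other systems Lcn2, C3 and Pigr are known to be induced by cytokines that act through NF-kB, with C/EBP factors also acting on Lcn2 and C3.

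The sequence upstream of Lcn2 and of C3 is shown because these 2 genes had the larger steps with smoke and because it holds matches to the motifs of those factors. Both sequences are from RefSeq on the rat assembly GRCr8, are written 5′ to 3′ on the strand of the gene, and hold only bases before the gene's outermost annotated start. Positions are counted from the start that the RefSeq promoter table uses. In Lcn2, on the minus strand at chr3:36081852-36082030, the first run of capitals is a match to the NF-kB motif on the opposite strand at -242 and the second is a match to the C/EBP motif at -191. In C3, on the minus strand at chr9:2201340-2201589, both runs of capitals are C/EBP matches, at -117 on the opposite strand and at -104.
Lcn2: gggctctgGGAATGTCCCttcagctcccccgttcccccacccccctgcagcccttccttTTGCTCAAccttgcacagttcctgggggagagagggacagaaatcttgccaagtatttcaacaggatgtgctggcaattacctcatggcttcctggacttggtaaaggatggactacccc
C3: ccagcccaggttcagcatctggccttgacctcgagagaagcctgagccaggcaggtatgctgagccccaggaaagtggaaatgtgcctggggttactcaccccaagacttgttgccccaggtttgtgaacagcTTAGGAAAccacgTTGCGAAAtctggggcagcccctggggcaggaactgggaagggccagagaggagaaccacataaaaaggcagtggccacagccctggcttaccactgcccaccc

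Both strands of the 300-base RefSeq promoter windows, which begin 250 bases before the start, were searched for 6 motifs in all 33469 promoters of the table. The NF-kB motif was found in 7.514% of promoters and in that of Lcn2. The C/EBP motif, TTNCNNAA, was found in 41.32% of promoters, once in that of Lcn2 and at 2 places in that of C3. Neither motif was found in the window of Pigr, on the plus strand of chromosome 13. The antioxidant response motif TGANNNNGC, present in 40.54% of promoters, was found in the window of Pigr at -171 and in neither of the others. Only the first 69 bases of the Pigr window lie before the gene's outermost annotated start, so that match lies inside the annotated gene. No match to the IRF motif GAAANNGAA (9.713% of promoters), the AP-1 motif TGANTCA (7.329%) or the xenobiotic response motif GCGTG (29.7%) lay in the 3 windows. A match is a run of letters and not evidence that a factor binds, and letters absent from these windows say nothing about a factor acting from elsewhere.

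Lcn2 had the widest range of the 3 genes. Its signal at 2, 6 and 20 h was 3135.2, 2619.7 and 2964.4 in the sham lungs. At 300 µg TPM/l it was 8968.5, 8642.1 and 6136.2, and at 600 µg TPM/l it was 9898.5, 11880.6 and 11934.7. The 3 exposures did not overlap: the lowest array at 300 µg TPM/l, at 20 h, stood above every sham array, and the lowest at 600 µg TPM/l, at 2 h, stood above every array at 300 µg TPM/l. Signals are on a linear scale and averaged 2906 ± 263 in sham lungs, 7916 ± 1550 at 300 µg TPM/l and 11238 ± 1160 at 600 µg TPM/l (SD over the 3 recovery times, n = 3 arrays each). The brightest probe set of each type A array read 16610 to 18671, above Lcn2 on every array. Differences were taken on the scale of log2(signal + 50), within each recovery time. At 600 µg TPM/l Lcn2 was 1.64, 2.16 and 1.99 above sham at 2, 6 and 20 h, a mean of 1.93 ± 0.26, or 3.81-fold. At 300 µg TPM/l it was 1.5, 1.7 and 1.04 above sham, a mean of 1.41 ± 0.34, or 2.67-fold.

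C3 varied little within an exposure. Its signal at 2, 6 and 20 h was 3084.0, 3131.3 and 3268.3 in sham lungs, 5494.9, 5489.3 and 4870.5 at 300 µg TPM/l, and 6966.8, 7259.0 and 7759.1 at 600 µg TPM/l. The exposures again did not overlap, and within each of them the highest array was at most 1.128 times the lowest. The mean was 3161 ± 95.7 in sham lungs, 5285 ± 359 at 300 µg TPM/l and 7328 ± 401 at 600 µg TPM/l (SD, n = 3). On the log2 scale C3 at 600 µg TPM/l was 1.16, 1.20 and 1.23 above sham at 2, 6 and 20 h, a mean of 1.20 ± 0.04 (2.30-fold). At 300 µg TPM/l the differences from sham were 0.82, 0.80 and 0.57, a mean of 0.73 ± 0.14 (1.66-fold).

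Pigr was bright in sham lungs and had the smallest steps. Its signal at 2, 6 and 20 h was 5910.6, 6652.9 and 6430.7 in sham lungs, 7267.0, 7119.8 and 7437.1 at 300 µg TPM/l, and 7585.9, 8523.2 and 8504.7 at 600 µg TPM/l. The groups did not overlap, but the gaps were narrow: the array at 600 µg TPM/l and 2 h, 7585.9, lay just above the array at 300 µg TPM/l and 20 h, 7437.1. The mean was 6331 ± 381 in sham lungs, 7275 ± 159 at 300 µg TPM/l and 8205 ± 536 at 600 µg TPM/l (SD, n = 3). On the log2 scale Pigr at 600 µg TPM/l was 0.36, 0.36 and 0.40 above sham at 2, 6 and 20 h, a mean of 0.37 ± 0.03 (1.29-fold). At 300 µg TPM/l the differences were 0.30, 0.10 and 0.21, a mean of 0.20 ± 0.10 (1.15-fold), so the 6 h difference was about as large as the SD of the 3.

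**Figure D1:**
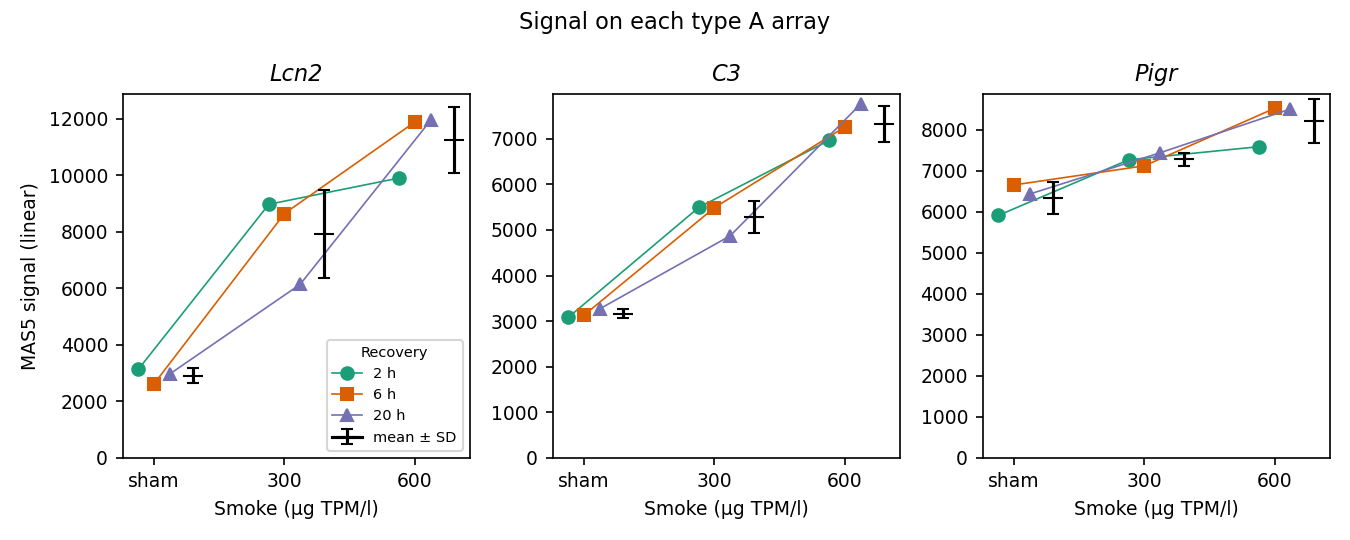
MAS5 signal on a linear axis that starts at 0, for Lcn2, C3 and Pigr on the 9 type A arrays, by smoke level and with 1 line per recovery time; black crosses are the mean ± SD of the 3 recovery times. In each gene the arrays of the 3 exposures do not overlap, and the purple line of Lcn2 at 20 h has its lowest smoke value at 300 µg TPM/l, 6136.2.

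The same order, sham below 300 below 600 µg TPM/l with no overlap of arrays, was found in 67 of the 19638 probe sets past the filter on dim signals, or 0.341%, and the falling order in 32. The genes were chosen for this order, so nothing is read from their having it. All 3 genes passed that filter with every array far above its limit of 183.8 on type A. Across all probe sets the median difference between exposures was between -0.0075 and -0.002 on the log2 scale. The authors had scaled every array to nearly the same mean, so this median cannot show whether the arrays as a whole were shifted before scaling. Because whole lung was measured, more RNA per cell and more cells of a type that holds the RNA cannot be told apart.

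How the difference from sham was divided between the 2 dose steps was read at each recovery time. For Lcn2 the difference of 600 from 300 µg TPM/l was 0.14 at 2 h, 0.46 at 6 h and 0.95 at 20 h, a mean of 0.52 ± 0.41 (1.43-fold). At 2 h the lower smoke level had 91.38% of the log2 difference that the higher level had from sham, at 6 h 78.85% and at 20 h 52.09%. On the linear signal the same shares were 86.25%, 65.03% and 35.36%, so the order over time does not depend on the scale. For C3 the difference of 600 from 300 µg TPM/l was 0.34, 0.40 and 0.67 at 2, 6 and 20 h, a mean of 0.47 ± 0.17 (1.38-fold), and the share reached at 300 µg TPM/l was 70.79%, 66.67% and 46.03%.

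For both Lcn2 and C3 the array at 300 µg TPM/l and 20 h was the lowest of its exposure, and the array at 600 µg TPM/l and 20 h was the highest. Both arrays carry the further label that says sham, and its part in these values was not tested. The array at 300 µg TPM/l and 20 h read 6136.2 for Lcn2 against 3135.2 on the highest sham array, and 4870.5 for C3 against 3268.3. Without the 20 h conditions the mean difference of 600 from 300 µg TPM/l was 0.30 for Lcn2 in place of 0.52, and 0.37 for C3 in place of 0.47. The difference of 600 µg TPM/l from sham was then 1.90 for Lcn2 and 1.18 for C3, close to the values over all times. Pigr did not have this pattern: its difference of 600 from 300 µg TPM/l was 0.06, 0.26 and 0.19 at 2, 6 and 20 h, a mean of 0.17 ± 0.10 (1.13-fold), and its share at 300 µg TPM/l was 82.78%, 27.36% and 51.99%. With 1 array per condition these shares have no error of their own, and whether the dose steps differ between times was not tested.

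**Figure D2:**
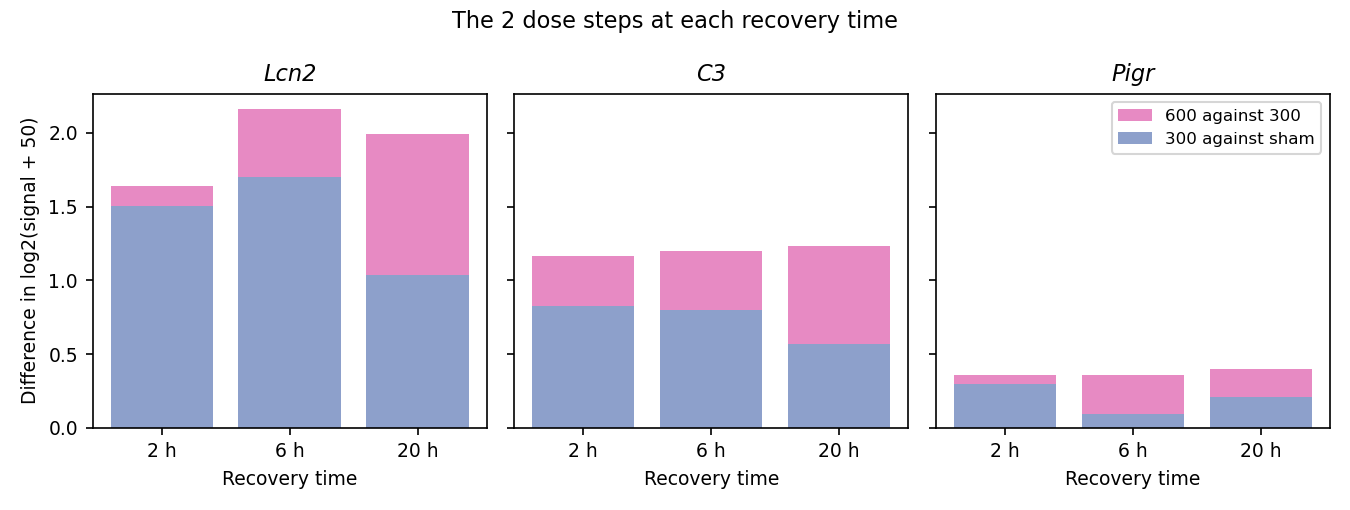
Stacked differences in log2(signal + 50) at each recovery time, on an axis that starts at 0: the lower bar is 300 µg TPM/l against sham and the upper bar 600 against 300 µg TPM/l, so the full height is 600 µg TPM/l against sham. Each bar is 1 array against 1 array; the upper bar of Lcn2 is 0.14 at 2 h and 0.95 at 20 h, while the full height of C3 is 1.16 to 1.23.

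Recovery time differences were estimated in a model of exposure and time, fitted with limma to all 19638 probe sets. They are not independent of how the genes were chosen: exposures whose arrays do not overlap over the 3 recovery times leave little room for large time differences. The values are therefore a description, and that none of the 3 genes passed the threshold is not read as a result. Lcn2 at 6 h differed from 2 h by -0.02 on the log2 scale (SE 0.14, 95% interval -0.32 to 0.29) and at 20 h by -0.12 (-0.42 to 0.19). C3 differed by 0.03 at 6 h (SE 0.07, -0.14 to 0.19) and by 0.02 at 20 h (-0.14 to 0.19). Pigr differed by 0.10 at 6 h (SE 0.06, -0.03 to 0.24) and by 0.11 at 20 h (-0.03 to 0.24), and in sham lungs its lowest array was that at 2 h. Between 20 h and 6 h the intervals ran from -0.41 to 0.20 for Lcn2, from -0.17 to 0.16 for C3 and from -0.13 to 0.14 for Pigr. Over the whole table the share of probe sets called at a Benjamini-Hochberg adjusted p under 0.05 was 0.0153% for 6 h against 2 h, 0.0509% for 20 h against 2 h and 0.0% for 20 h against 6 h. That last comparison had 0 calls with limma, and 881 probe sets had an unadjusted p under 0.05.

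Set beside the exposure differences, the upper end of the recovery interval of C3, 0.19, was below its mean of 0.73 at 300 µg TPM/l against sham. For Pigr the upper end of 0.24 was above its mean of 0.20 at 300 µg TPM/l against sham, so a time difference as large as that dose step was within the interval. For Lcn2 the lower end of -0.42 was similar in size to its mean difference of 0.52 between the smoke levels. The choice of the genes favours exposure differences over time differences, so which of them is larger is not read as a result.

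The difference between smoke, both levels together, and sham was also set at 6 or 20 h against that at 2 h, in a model with a smoke-by-time term. Its spread is that between the 2 smoke levels within a time, a step for which the genes were chosen, and it holds no variation between sham arrays. These intervals are therefore a description too, and their including 0 is not read as a result. The SE of Lcn2 is 0.46 there and 0.14 in the model of exposure and time. These SEs are not like for like, since each smoke difference in the smoke-by-time model rests on 1 sham array. How much of the gap comes from the dose step was not tested. For Lcn2 the smoke difference at 6 h was 0.36 above that at 2 h (95% interval -0.69 to 1.40), and at 20 h the change was -0.06 (-1.10 to 0.99). For C3 the changes were 0.0071 (SE 0.37, -0.84 to 0.86) and -0.09 (-0.94 to 0.76). For Pigr they were -0.10 (SE 0.18, -0.51 to 0.31) and -0.02 (-0.43 to 0.39). Across all probe sets 0.0% were called at 6 h by limma, where 1231 had an unadjusted p under 0.05, and 0.0102% at 20 h.

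**Figure D3:**
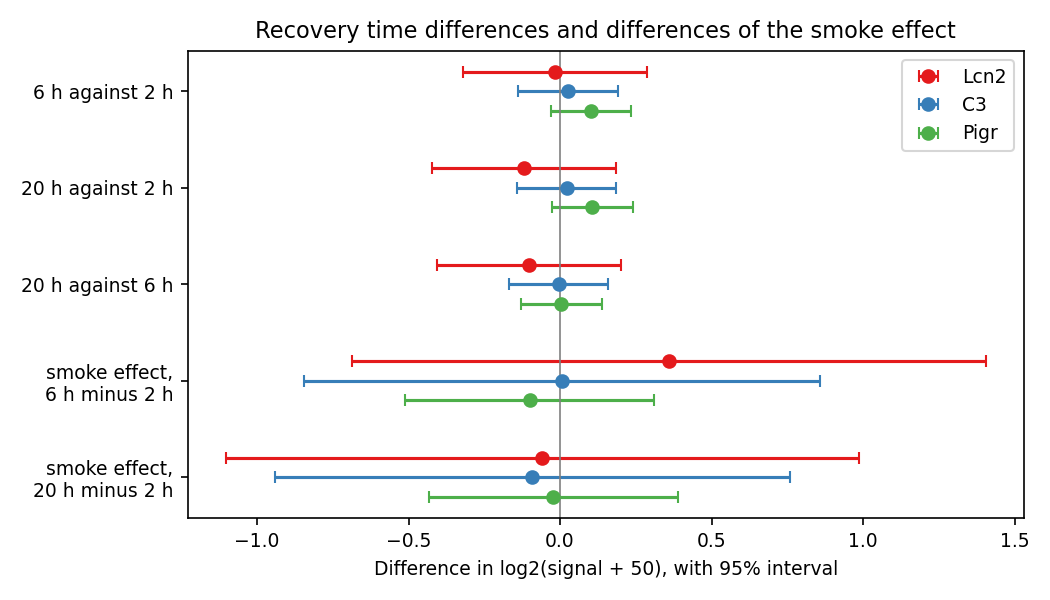
Differences in log2(signal + 50) with 95% intervals from the limma fits, for Lcn2, C3 and Pigr: the upper 3 rows compare recovery times over all exposures, the lower 2 rows compare the smoke difference from sham at 6 or 20 h with that at 2 h. Every interval includes 0, those of the lower rows are the wider ones, and the choice of the genes bears on both.

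Over the 9 arrays the 3 genes varied together, as their shared order of exposures makes them do: Pearson's r was 0.98 between Lcn2 and C3, 0.88 between Lcn2 and Pigr and 0.93 between C3 and Pigr. With each exposure's mean removed, r was 0.81 between Lcn2 and C3, -0.07 between Lcn2 and Pigr and 0.27 between C3 and Pigr. The first of these pairs therefore also moved together within each smoke level, where the array at 300 µg TPM/l and 20 h was low for both. In sham lungs the pair did not: at 2 h Lcn2 had its highest sham signal, 3135.2, and C3 its lowest, 3084.0. These are descriptions over arrays that share their labelling and scaling, and they carry no p-value.

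The genes most like each of the 3 were found by Pearson's r of log2(signal + 50) over the 9 type A arrays, among 6435 other genes with 1 symbol. For Lcn2 the 5 most alike were Cd68 (r = 0.996), Cmbl (0.989), Gpnmb (0.986), Chia (0.982) and Ctsk (0.972). For C3 they were Cmbl (0.993), Cd68 (0.986), Gpnmb (0.982), Sod2 (0.980) and Pld3 (0.977), so 3 genes stand in both lists. Cd68 is a lysosomal glycoprotein of macrophages, Gpnmb a glycoprotein of lipid-laden macrophages, Chia the acidic chitinase, Ctsk the protease cathepsin K, Cmbl a hydrolase, Sod2 the mitochondrial superoxide dismutase and Pld3 a lysosomal nuclease. For Pigr the 5 were Tmem14c (0.957), a mitochondrial membrane protein, Sdcbp (0.956), the scaffold syntenin, P4hb (0.948), the protein disulfide isomerase, Ctsd (0.948), the protease cathepsin D, and Ank3 (0.946), the membrane adaptor ankyrin G. In all 74 genes had r above 0.9 with Lcn2, 74 with C3 and 26 with Pigr.

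Cd68 shows how close the likeness was. Its signal at 2, 6 and 20 h was 1146.8, 1026.2 and 1105.5 in sham lungs, 2171.1, 2103.6 and 1770.3 at 300 µg TPM/l and 2467.7, 2440.3 and 2672.4 at 600 µg TPM/l. As in Lcn2 and C3, the array at 300 µg TPM/l and 20 h was the lowest of its exposure. The same array was also lowest of its exposure for Cmbl, Gpnmb, Chia and Sod2, but not for Pld3 or Ctsk. On the log2 scale Cd68 at 600 µg TPM/l stood 1.17 above sham, Cmbl 0.79, Gpnmb 1.30, Chia 2.21, Sod2 0.97 and Pld3 1.04. Ctsk stood 1.73 above, from sham signals of 46.7 to 110.1 that lie under the filter limit. Since these genes were picked for following Lcn2 and C3 over the same arrays, their differences are a description and carry no test.

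The like genes of Pigr had smaller steps, as Pigr itself did, except for Ctsd. Tmem14c was 0.40 above sham at 600 µg TPM/l, Ank3 0.28, P4hb 0.24 and Sdcbp 0.19, and Ctsd was 0.92 above, again as a description. Sdcbp at 2, 6 and 20 h read 6806.5, 7220.8 and 7155.7 in sham lungs, 7810.3, 7682.4 and 7699.2 at 300 µg TPM/l and 7990.3, 8099.7 and 8072.7 at 600 µg TPM/l. As in Pigr the lowest sham array was that at 2 h.

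**Figure D4:**
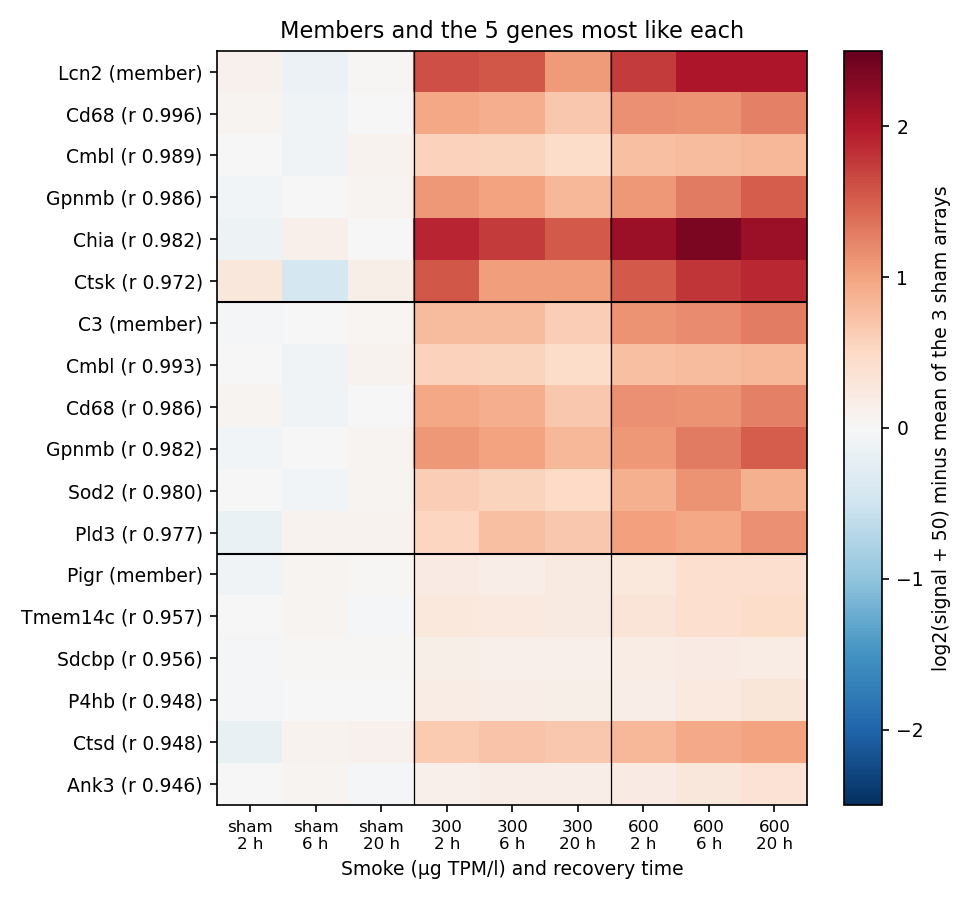
Colour gives log2(signal + 50) minus the mean of the 3 sham arrays of the gene, for the 3 members and the 5 genes most like each by Pearson's r over 9 type A arrays; columns are the arrays, sham to 600 µg TPM/l, with recovery times in order. The rows of Lcn2 and C3 share Cd68, Cmbl and Gpnmb, and the rows of Pigr are pale apart from Ctsd, which stands 0.92 above sham at 600 µg TPM/l.

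The rest of the machinery around the 3 genes was read from 10 lists of pathway genes, 138 genes without the 3, of which 77 passed the filter. At 600 µg TPM/l against sham 3 of the 77 were higher by limma at an adjusted p under 0.05, or 3.896%, and 0 were lower. Over all probe sets 0.428% were called higher and 0.0866% lower in that comparison. The median difference of the 77 genes was 0.11 on the log2 scale, against -0.0075 over all probe sets tested. These shares and medians are not like for like. Each list gene was read from its brightest probe set, while all probe sets include dimmer ones of a gene and ones without a symbol. At 300 µg TPM/l against sham no gene of the lists was called (median 0.01), with 0.0407% of all probe sets called higher and 0.00509% lower. Between 600 and 300 µg TPM/l none was called either (median 0.08), with 0.0204% of all probe sets called. The lists were drawn up with earlier results of these arrays known.

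Upstream of C3, the classical and lectin routes had 12 genes tested, with a median of 0.26 at 600 µg TPM/l against sham and 1 gene called. That gene was C1qc, a chain of the recognition molecule C1q: at 2, 6 and 20 h it read 545.2, 518.6 and 492.8 in sham lungs, 755.5, 820.1 and 591.6 at 300 µg TPM/l, and 854.6, 779.4 and 901.7 at 600 µg TPM/l. It was 0.65 higher at 600 µg TPM/l than in sham lungs (SE 0.11, adjusted p = 0.043). Sham arrays did not overlap with either smoke level, while the 2 smoke levels did. The other chains of C1q, C1qa (0.46, adjusted p = 0.11) and C1qb (0.40, adjusted p = 0.33), were not called. Nor were Colec12, a collectin receptor (-0.41, adjusted p = 0.115), or C2, the protease zymogen of the C3 convertase (0.28, adjusted p = 0.46). In the alternative route the 2 genes tested, Cfp, which encodes the convertase stabiliser properdin (-0.13, adjusted p = 0.74), and Cfd, which encodes factor D (-0.18, adjusted p = 0.74), were not called.

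Downstream of C3, none of 4 terminal pathway genes was called. The smallest p was that of C5, the next protein cleaved after C3, which stood 1.05 below sham at 600 µg TPM/l with an adjusted p of 0.097. On type B it read 178.9, 230.3 and 103.1 at 600 µg TPM/l against 475.1, 416.5 and 304.8 in sham lungs at 2, 6 and 20 h. The 3 values at 600 µg TPM/l lie under the type B filter limit of 238.7. Both receptor genes that passed the filter were not called: Itgb2, the shared chain of complement receptors 3 and 4, stood at 0.18 (adjusted p = 0.65), and C5ar1, the receptor of the C5 peptide, at 0.17 (adjusted p = 0.68).

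Of 8 regulators of complement tested, C4bpa was called. It encodes the alpha chain of C4b-binding protein, which holds back the classical convertase. At 2, 6 and 20 h it read 535.5, 425.5 and 531.7 in sham lungs, 899.4, 743.0 and 642.7 at 300 µg TPM/l, and 895.4, 1187.5 and 1175.2 at 600 µg TPM/l. C4bpa was 1.05 higher at 600 µg TPM/l than in sham lungs (SE 0.15, adjusted p = 0.019), with the lowest array at 300 µg TPM/l again that at 20 h. The smoke arrays all lay above the sham arrays, while 899.4 at 300 µg TPM/l just exceeded 895.4 at 600 µg TPM/l. Cfi, the protease that inactivates the C3 fragment on surfaces, stood at 0.57 with an adjusted p of 0.19. Serping1 (0.13), Cd55 (0.14), Cd59b (0.08), Clu (0.06), Cr1l (-0.05) and Vtn (-0.35) were not called.

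Around Lcn2, none of 5 genes of siderophore and iron handling was called, and their median was -0.01. Slc22a17, a cell surface receptor of lipocalin 2, read 265.4, 294.3 and 284.2 at 600 µg TPM/l against 273.3, 362.1 and 283.0 in sham lungs at 2, 6 and 20 h (log2 difference -0.10, adjusted p = 0.81). Lrp2, or megalin, which takes up lipocalin 2 in the kidney, stood at -0.11 (adjusted p = 0.785), the transferrin receptor gene Tfrc at 0.01, Hamp, which encodes hepcidin, at -0.01 and the iron exporter gene Slc40a1 at 0.08.

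Around Pigr, none of 8 genes of IgA and transcytosis was called, and their median was -0.03. Jchain, the chain that joins IgA and IgM into the polymers that Pigr binds, read 2787.0, 2715.0 and 3162.8 at 600 µg TPM/l against 2427.3, 3191.3 and 3555.5 in sham lungs (log2 difference -0.07, adjusted p = 0.91), and the groups overlapped. Mzb1, a plasma cell chaperone, stood at 0.01 and Mal2, a protein of the transcytotic route, at -0.09. Tnfsf13, the ligand APRIL that supports plasma cells, lay at the edge of the threshold. On type B it read 3390.2, 4002.6 and 3955.3 at 600 µg TPM/l against 2371.7, 2364.4 and 2431.5 in sham lungs, without overlap (0.65, SE 0.12, adjusted p = 0.050). Its adjusted p ran from 0.037 to 0.23 over 18 alternatives, and it was called under 5 of them. Without sham at 2 h its difference was 0.77, with an adjusted p of 0.037 where that array was left out on type B and 0.057 where it was left out on both types.

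Among 19 genes of inducing cytokines and NF-kB signalling, Cd14 was called. It encodes the co-receptor that hands bacterial lipopolysaccharide to Tlr4. At 2, 6 and 20 h it read 591.3, 510.6 and 575.5 in sham lungs, 775.4, 822.9 and 809.7 at 300 µg TPM/l, and 1026.1, 1171.4 and 823.5 at 600 µg TPM/l. Cd14 was 0.78 higher at 600 µg TPM/l than in sham lungs (SE 0.12, adjusted p = 0.021), and its 3 exposures did not overlap, though 823.5 and 822.9 all but met. The cytokine gene Il1b stood at 0.69 (adjusted p = 0.084), and the coactivator Nfkbiz, which Lcn2 induction is known to need in mouse cells, at 0.37 (adjusted p = 0.36). The transcription factor genes Rela (0.11), Nfkb1 (-0.15), Cebpb (0.17), Cebpd (0.16) and Stat3 (0.03), the interleukin 17 receptor gene Il17ra (-0.03) and Tlr4 (0.08) were not called.

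Of 13 other secreted defence genes none was called, and their median was 0.23. Chi3l1, a chitinase-like protein, had the smallest p: on type B it read 5362.2, 7693.9 and 6263.6 at 600 µg TPM/l against 4510.5, 4011.1 and 3554.5 in sham lungs (0.66, adjusted p = 0.073). Its adjusted p ran from 0.025 to 0.35 over 18 alternatives, with 2 calls. Without sham at 2 h its difference was 0.82, with an adjusted p of 0.037 where that array was left out on type B and 0.057 where it was left out on both types. Muc1, a membrane mucin, stood at 0.43 (adjusted p = 0.094), the surfactant lectin gene Sftpd at 0.19, the protease inhibitor gene Slpi at -0.04 and the lysozyme gene Lyz2 at 0.03. Lyz2 read up to 18671, the highest signal on type A. Of 4 other acute phase genes Hp, which encodes haptoglobin, had the smallest p (0.51, adjusted p = 0.14). It read 816.0, 977.8 and 972.4 at 600 µg TPM/l against 715.5, 561.7 and 621.4 in sham lungs.

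**Figure D5:**
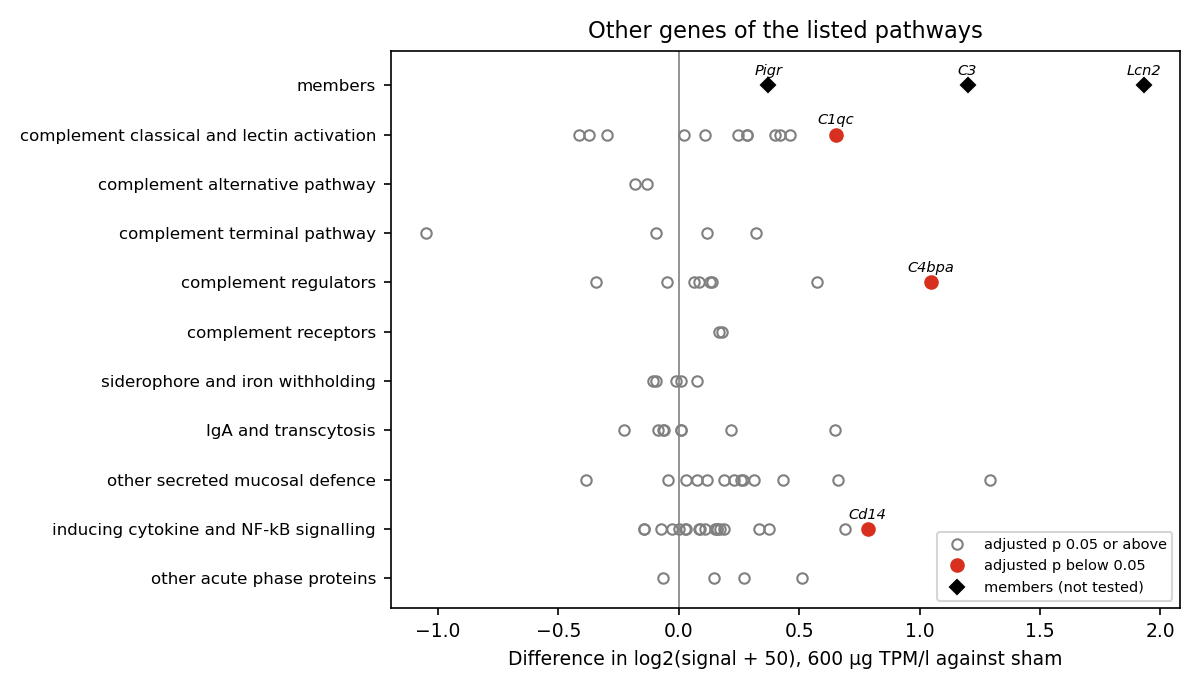
Each point is 1 gene's difference in log2(signal + 50) at 600 µg TPM/l against sham, by pathway list; filled red points have an adjusted p under 0.05 in limma and diamonds are the 3 members, which were not tested. C1qc, C4bpa and Cd14 are the 3 called genes, at 0.65, 1.05 and 0.78, and the other genes are open circles.

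The 3 calls in the lists rest on few arrays. With the filter on dim probe sets removed no gene of the lists was called, and without the 20 h conditions only Cd14 was (0.94, adjusted p = 0.033). Leaving out sham at 2 h, sham at 6 h or 600 µg TPM/l at 6 h left none called, and leaving out 600 µg TPM/l at 2 h or at 20 h left 1, which was C4bpa in the first case (1.26, adjusted p = 0.0064) and Cd14 in the second (0.93, adjusted p = 0.017).

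Summed markers of inflammatory cells were higher on the smoke arrays than on the sham arrays. Of 8 neutrophil markers 5 were annotated and 3 passed the filter, and Cxcr2 and Camp were below it. The summed signal of the 3 was 1287 to 2209 in sham lungs, 3082 to 4110 at 300 µg TPM/l and 3909 to 8250 at 600 µg TPM/l, so the smoke levels overlapped with each other but not with sham. On the smoke arrays most of it was S100a9, a calcium-binding protein of granulocytes, which at 2, 6 and 20 h read 967.8, 694.7 and 1033.4 in sham lungs, 2300.1, 2233.6 and 2752.3 at 300 µg TPM/l and 2976.4, 6636.4 and 5161.2 at 600 µg TPM/l. S100a9 was 2.33 higher at 600 µg TPM/l than in sham lungs (SE 0.22, adjusted p = 0.0015), while the receptor gene Csf3r, at 0.27 (adjusted p = 0.66), and S100a8, at 0.77 (adjusted p = 0.40), were not called. Of 7 macrophage markers 4 were annotated and tested, and their sum was 5553 to 6901 in sham lungs, 6929 to 7918 at 300 µg TPM/l and 8270 to 8926 at 600 µg TPM/l. These ranges did not overlap, but 6901 and 6929 nearly met, and the sum holds Cd68. Mrc1, the brightest of the 4, overlapped between sham and 300 µg TPM/l, with 5066.0 in sham lungs at 2 h and 4237.7 at 300 µg TPM/l and 6 h. The markers did not all go one way: at 600 µg TPM/l against sham Cd68 (1.17) and Mrc1 (0.38) were positive and Adgre1 (-0.40) and Cd163 (-0.16) negative. Cd68 alone was called, but it is also the gene most like Lcn2 over these arrays. Neither its call nor the order of the sum that holds it is therefore read as a result. Neutrophils store lipocalin 2 and macrophages make C3, and the part of these cells in the signals of Lcn2 and C3 was not tested.

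Summed markers of alveolar type 2 and airway secretory epithelium, in which Pigr and Lcn2 can be made, overlapped between all 3 exposures. The 8 alveolar type 2 markers summed to 74093 to 82470 in sham lungs, 76615 to 81893 at 300 µg TPM/l and 76756 to 87737 at 600 µg TPM/l. The 5 airway secretory markers that passed, of 6, summed to 18729 to 21766 in sham lungs, 20379 to 23368 at 300 µg TPM/l and 20156 to 24266 at 600 µg TPM/l. Most of that sum was Scgb1a1, which stood at 0.04 at 600 µg TPM/l against sham, and the other genes diverged. Cyp2f4 (-0.79) and Bpifa1 (-0.39) were negative, Scgb3a1 (0.48) and Muc5b (0.31) positive, and none was called. The sum of the 3 ciliated cell markers that passed, of 5, was 4312 to 4811 in sham lungs, 3818 to 4286 at 300 µg TPM/l and 3673 to 4130 at 600 µg TPM/l. That order came from the brightest of them, Tppp3 (-0.32 at 600 µg TPM/l against sham), while Foxj1 (0.31) and Dnai1 (0.08) were positive, and none of the 3 was called. The sum of the 5 fibroblast markers was 11898 to 12487 in sham lungs, 9480 to 11394 at 300 µg TPM/l and 9780 to 11010 at 600 µg TPM/l. Its brightest gene, Col3a1, stood at -0.24, Col1a1 at -0.34, Pdgfra at -0.27, Dcn at -0.07 and Lum at 0.03 at 600 µg TPM/l against sham, and none was called. The sums of 4 plasma cell markers, of 5, overlapped, at 6129 to 7172 in sham lungs, 5910 to 6992 at 300 µg TPM/l and 6356 to 7259 at 600 µg TPM/l. So did those of 4 endothelial markers, of 5, at 8449 to 10598, 8919 to 9465 and 8711 to 9176 in the same order. The brightest endothelial gene, Kdr, stood at 0.02 at 600 µg TPM/l against sham. Emcn stood at -0.38, Tie1 at -0.31 and Pecam1 at -0.01, and none was called. None of these marker sums was tested, nor was their part in the signals of the 3 genes. Liver is the main source of plasma C3, and of 6 hepatocyte markers Alb, Apoa1, Ttr and Apoc3 were below the filter. The others, Serpina1 and Cyp2e1, summed to 895 to 1224 in sham lungs, 1248 to 1731 at 300 µg TPM/l and 882 to 1729 at 600 µg TPM/l. They went opposite ways against sham. Serpina1 stood at -0.08 at 300 µg TPM/l and -0.28 at 600 µg TPM/l, and Cyp2e1 at 0.75 and 0.56, and neither was called.

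The genes next to the 3 on their chromosomes are given as a description. Of the 3 protein-coding genes on each side of Lcn2, C3 and Pigr in RefSeq, 18 in all, 10 were tested. None was called by limma at 600 µg TPM/l against sham, with differences of -0.18 to 0.20 and adjusted p of 0.62 to 0.98. Over all probe sets 0.428% were called higher and 0.0866% lower, so no call among 10 genes is not read as a result. Beside Lcn2 on chromosome 3, Bbln stood at 0.20 and Ptges2, on the other side, at -0.01. Beside C3 on chromosome 9, Gpr108 stood at -0.05 and Trip10, next after it, at -0.01. Beside Pigr on chromosome 13, Fcmr, which encodes an IgM receptor, stood at 0.11 (adjusted p = 0.86). Fcamr, on the other side, had no probe set annotated to it alone on either array type.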

How the data were processed

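Total RNA of rat lung, turned into biotin-labelled cRNA, was read on 2 Affymetrix array types, per the labels' protocols. The authors deposited linear signal intensity, for which the submitters' processing notes name MAS5 without a version. The mean without the highest and lowest values lay between 500.09 and 500.10 throughout, and this scaling by the authors was kept. Type A arrays had median signals of 263.6 to 278.5 and type B arrays of 315.3 to 338.7. Precision is limited by the number of arrays.

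From the deposited intensity, log2(signal + 50) was computed, and a probe set was kept where 3 or more of 9 arrays reached the 40th percentile of the type (183.8 on A, 238.7 on B). Without the 57 controls of a type, and with the 100 shared probe sets taken from A alone, this left 9901 on A and 9737 on B. Each type was modelled with limma 3.58.1 (lmFit and trended eBayes, R 4.3.3), two-sided, with Benjamini-Hochberg adjustment over both types at 0.05. The first held exposure and recovery time (4 residual degrees of freedom) and the second smoke, time and their interaction (3). No condition has a replicate, so exposures are compared over recovery times, and a p-value reflects no more than how these arrays vary, which may be technical. The script was tested on simulated data. A fold change is on the log2(signal + 50) scale and understates the change of dim genes.

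Symbols came from the platform annotation, updated through Entrez identifiers against RefSeq (GRCr8). It gave 12789 probe sets 1 symbol, 312 several and 2822 none on type A, and 7570, 100 and 7663 on type B. A list gene was read from its brightest probe set on average. The members, lists and tests were chosen with earlier results of these data known. The text names the 3 members, the genes called at 600 µg TPM/l against sham in each list (up to 4, or the 1 with the smallest p) and the 5 genes most like each member. Other list and marker genes, and the chromosomal neighbours, were chosen after their values were seen. The alternatives tried were a pseudocount 4 times as large or 0.25 of it, quantile normalization, scaling to the median, the 60th percentile or no filter at all, no trend, adjustment within a type, and leaving out single arrays, single conditions or the 20 h conditions.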

Additional observations from a re-analysis of the deposited data

How the results depend on the processing

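The exposure differences of Lcn2, C3 and Pigr kept their direction under each of 11 alternatives. Where arrays were left out this was fixed in advance, since the genes were chosen for exposures that do not overlap. Leaving out either array of a comparison dropped its recovery time, so both gave the same value. For a 20 h array that value was the one without the 20 h conditions. The recovery time results (17 alternatives each) and smoke-by-time results (11 each) stayed uncalled, which the choice of the genes partly set. Small values among them changed sign. The difference of 600 µg TPM/l from sham moved by more than its SD over times for C3, to 1.13 with quantile normalization and 1.16 with 4 times the pseudocount, and for Pigr, to 0.28 with quantile normalization and 0.40 with median scaling. Leaving out arrays gave 0.30 to 0.71 for Lcn2 at 600 against 300 µg TPM/l, with the lowest value without the 20 h conditions. The number of pathway genes called at 600 µg TPM/l against sham, 3, became 5 with quantile normalization, 5 without the sham array of type B at 2 h, 0 with no filter and 1 without the 20 h conditions, and ran from 0 to 3 when 1 condition was left out. No filter adds dim probe sets to the adjustment; the cause of the other changes was not tested. C1qc lost its call under 10 of 18 alternatives, C4bpa under 6 and Cd14 under 5, while Tnfsf13 gained one under 5 and Chi3l1 under 2. Over all probe sets the calls at 600 µg TPM/l against sham, 101, fell to 35 with no filter. Those for 20 h against 2 h, 10, ran from 0 with no filter to 37 without the type A sham array at 2 h, and those for 6 h against 2 h, 3, from 1 to 8. A sham array cannot be left out of the smoke-by-time model. Arrays were matched by recovery time in every exposure comparison, and the labels give no replicate numbers for a further block.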
